A study of Mus musculus with 4 samples.

Results

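Collagen chains are the genes for the alpha chains of the collagens, the rod-like proteins that give the aortic wall its tensile strength. They were defined as the protein-coding genes whose symbol reads Col, a type number, the letter a and a chain number. The table of 32948 genes held 40 of them. They comprised 11 fibrillar chains, 6 chains of the basement membrane type IV, 3 of the network-forming types VIII and X, and 20 of other types. Another 4 symbols of the reference annotation, Col7a1, Col13a1, Col17a1 and Col28a1, were not analysed here.

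The cells were isolated from the arch and the ascending part of the aorta. The mice carried Wnt1-Cre and the Rosa26-mTmG reporter. With this reporter a cell is red from membrane tdTomato unless Cre recombinase was active in it or its forebears, in which case it is green from GFP. The Wnt1-Cre driver is active in neural crest, and all 4 libraries carry driver and reporter alike, so GFP records a Wnt1-Cre history. The 4 libraries were female GFP and male GFP, set against female tdTomato and male tdTomato. Female cells came from 1 sample and male cells from a pool of 2 samples, and the 2 colours of a sex were sorted from the same suspension. The sources used here state no ages. The submitters called all samples vascular smooth muscle cells, whereas the sort they describe used fluorescence alone.

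A collagen molecule is a triple helix of 3 alpha chains, which are identical in some types and the products of several genes in others. Fibrillar types I and III carry the load in the media and adventitia, with type V as a minor partner that sets fibril diameter. Type IV forms the sheet under endothelium and around each smooth muscle cell, type VI forms beaded filaments next to it, and types XV and XVIII join the basement membrane to the matrix outside. FACIT collagens, such as types XII, XIV and XVI, sit on the surface of fibrils. Types II, IX and XI build the fibrils of cartilage.

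Levels are given as CPM, counts brought to a common library size after TMM scaling, a factor that evens out differences in composition between libraries. Library totals were 13678668 counts in female GFP, 10094167 in male GFP, 13911111 in female tdTomato and 12837085 in male tdTomato. Both GFP libraries detected fewer genes at 10 counts or more, 12008 and 9517 against 16227 and 15669. A count of 0 allowed, at 3 counts, 0.238, 0.319, 0.201 and 0.216 CPM in the same order. Such limits, and all intervals below, cover counting error only. The 7 smooth muscle markers were detected in every library and summed to 16569 and 13970 CPM in GFP versus 12658 and 12047 CPM in tdTomato. The 8 endothelial markers summed to 15.7 and 12.7 CPM against 382 and 250.7 CPM, and 2 and 6 of them had 0 counts in female and male GFP. The 8 fibroblast markers summed to 3846 and 585 CPM against 3556 and 4329 CPM, with Pdgfra at 0 in female GFP and Dpt and Ly6a at 0 in male GFP. The 6 Schwann cell markers summed to 257 and 109 CPM against 8.23 and 11.7 CPM, of which 3 were at 0 in female GFP, 1 in male GFP and 4 in each tdTomato library. The 5 pericyte markers summed to 546 and 2146 CPM against 829 and 595 CPM, with Notch3 at 0 in both GFP libraries. Of 7 macrophage markers 5 were in the table, summing to 6.41 and 0.319 CPM against 19.1 and 73.9 CPM. In bulk RNA, fewer cells of a type, less RNA per cell and transcripts missed in preparing a library cannot be told apart.

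Collagen chains took 0.359% of all counts in female GFP (95% exact binomial interval 0.355 to 0.362) and 0.534% in male GFP (0.5296 to 0.539), against 0.618% (0.614 to 0.622) and 0.537% (0.533 to 0.541) in the tdTomato libraries. The mean share was 0.446% ± 0.124 in GFP and 0.578% ± 0.0574 in tdTomato (SD, n = 2 libraries each). Both GFP shares were below both tdTomato shares, although the intervals of the male pair overlapped, and the exact two-sided permutation test gave p = 0.333, the smallest that 2 against 2 libraries allow. After TMM scaling the order was not kept. The summed levels were then 3884 and 5740 CPM in GFP versus 5752 and 4960 CPM in tdTomato (exact permutation p = 0.667). Neither permutation test used the pairing of the colours by suspension.

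Fibrillar chains made up the largest part of the collagen counts in all libraries, at 48.9% in female GFP and 56.3% in male GFP versus 53.8% and 54.99% in tdTomato. Type IV chains made up 22.2% and 19.1% against 22.5% and 21.3%. The network class had the largest ratio between its highest and lowest part, at 6.62% in female GFP and 0.00371% in male GFP versus 0.245% and 0.138% in the tdTomato libraries. That class rested on Col8a1 in female GFP.

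**Figure D1:**
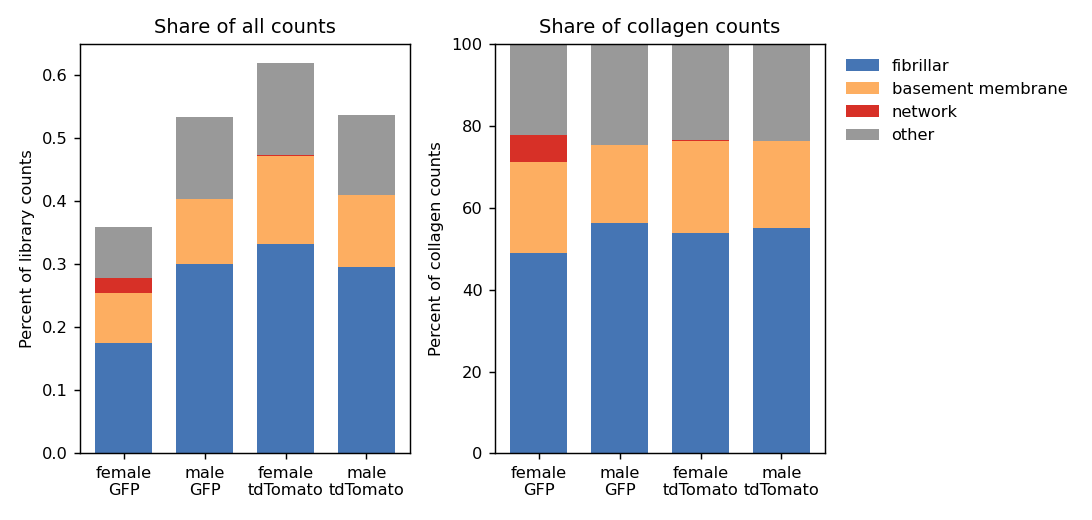
Collagen counts as percent of all counts (left) and as percent of the collagen counts (right) in each of the 4 libraries, divided into fibrillar, basement membrane (type IV), network (types VIII and X) and other chains. Female GFP had the lowest share of all counts, 0.359%, and the largest network part, 6.62%.

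Of the 40 chains, 28 reached 10 CPM in at least 1 library and 14 reached it in all of them. Per kilobase of transcript, the scale used here to compare genes, Col1a2 and Col3a1 were the 2 highest chains in every library. Col1a2 was ahead in 3 libraries and Col3a1 in male GFP. Col1a2 stood at 121 and 245 CPM per kb in GFP against 260.3 and 264 CPM per kb in tdTomato, and Col3a1 at 109 and 304 against 193 and 151 CPM per kb. Col18a1 followed at 62.8 and 92.1 against 82.2 and 80.05 CPM per kb, next in order in 3 libraries, whereas in male GFP Col4a5 and Col6a1 came before it at 118 and 94.4 CPM per kb. In female GFP Col4a6 came after it, at 51.6 CPM per kb.

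**Figure D2:**
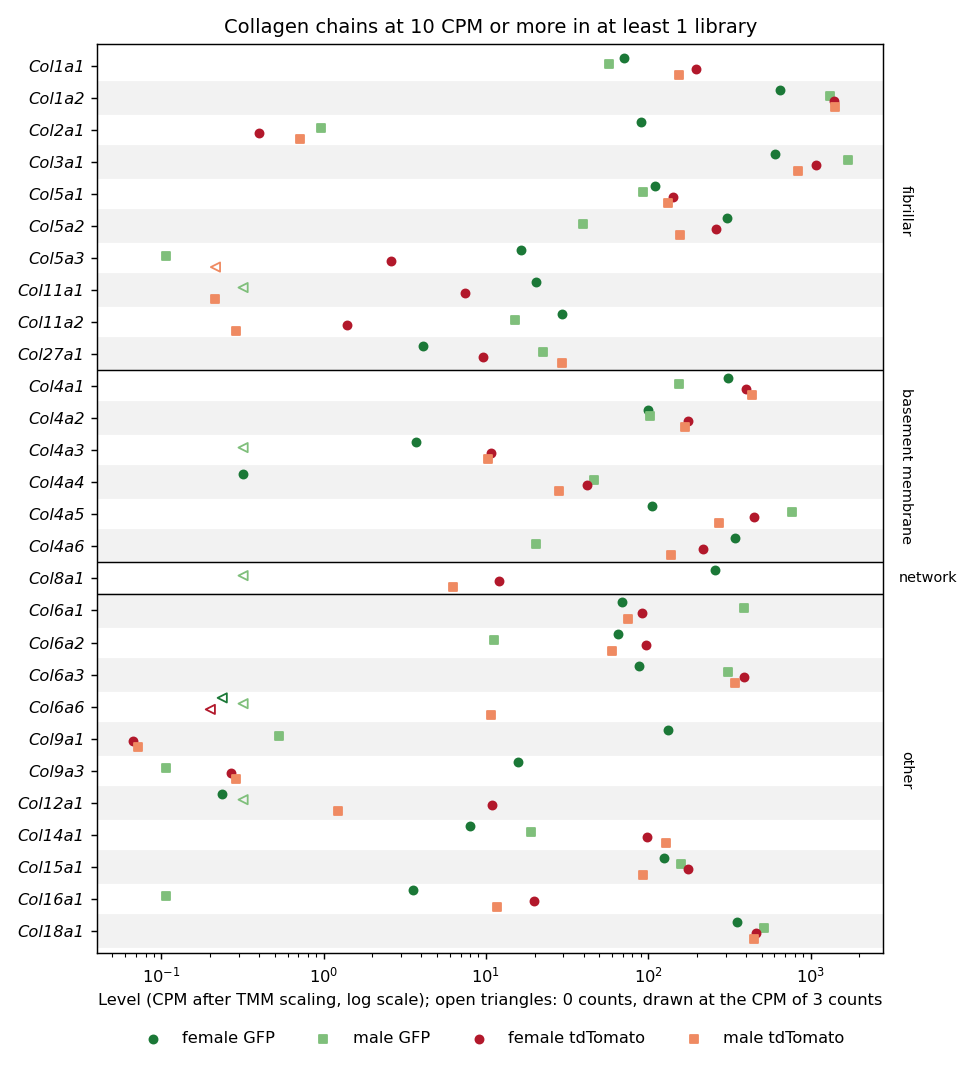
Level of the 28 collagen chains that reached 10 CPM in at least 1 library, with 1 point per library on a logarithmic CPM axis, grouped by class. The tdTomato points (reds) of abundant chains lie close together, whereas the GFP points (greens) of Col4a5, Col4a6, Col6a1 and Col6a2 lie far apart. Open triangles are libraries with 0 counts, drawn at the level 3 counts would give, which is an upper limit.

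GFP cells were compared with tdTomato cells of the same suspension. edgeR's quasi-likelihood test over the 2 pairs, with the suspension as a block and Benjamini-Hochberg adjustment over all genes, called 0 of 15055 genes tested, or 0%. Without adjustment, p was under 0.05 for 1298 of these genes. Of the 40 collagen chains 26 passed the filter on low counts and were tested. The test called none of the 26, and 0 had an unadjusted p under 0.05. The lowest edgeR p was that of Col12a1 (unadjusted p = 0.0502, adjusted p = 0.577). limma-voom called 0 genes, and 2 of the 26 chains had an unadjusted p under 0.05, as had 2074 of all 15055 genes. Fits without 1 library drop the block and leave 1 library in a colour, so fold sizes alone are given for them here. The median fitted log2 ratio of GFP over tdTomato over all tested genes was -1.28 without female GFP and -0.38 without male GFP. It was -0.055 without female tdTomato and -0.060 without male tdTomato. DESeq2, run on the same design as the main test, called 7.69% of all genes and none of the 26 chains, of which 5 had an unadjusted p under 0.05. Over all 15055 genes, 2735 had an unadjusted DESeq2 p under 0.05. With the dispersion at 1.47 and 1 residual degree of freedom, a difference that is not called here is not shown to be absent.

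By size alone, 5 of the 26 tested chains were lower in GFP by at least 2-fold in both pairs, namely Col1a1, Col4a3, Col12a1, Col14a1 and Col16a1. The background was 22.9% of all tested genes, near the 19.2% of the chains. Only 1 chain, Col11a2, was at least 2-fold higher in both pairs (3.85%), against 5.17% of all genes. Another 4 were at least 2-fold apart in opposite directions (15.4%), against 19.2% of all genes. With the prior count, Col8a1 and Col11a1 were higher in GFP in the female pair and lower in the male pair (7.69%, against 11.5% of all genes), and Col4a5 and Col19a1 the other way round (7.69%, against 7.75%). The male value of Col11a1 rests on 0 against 3 counts and the prior count, so its male direction was not measured. With a prior count of 10, the chains in opposite directions numbered 3. By any amount, 12 chains were lower in GFP in both pairs (46.2%, against 36.4%) and 3 were higher (11.5%, against 16.7%). Of these 3, Col5a3 had 1 against 0 counts in the male pair, so that its male direction was not measured. In the female pair alone 11 chains were 2-fold lower and 5 were 2-fold higher, that is 42.3% and 19.2%, against 37.8% and 22% of all genes. In the male pair the numbers were also 11 and 5, against 50% and 21.5%. The median log2 ratio of GFP over tdTomato over the 26 chains was -0.69 for the female and -0.44 for the male pair, beside -0.27 and -0.998 over all tested genes. With chains at 0 counts set to 3 counts, the medians stayed at -0.69 and -0.44.

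**Figure D3:**
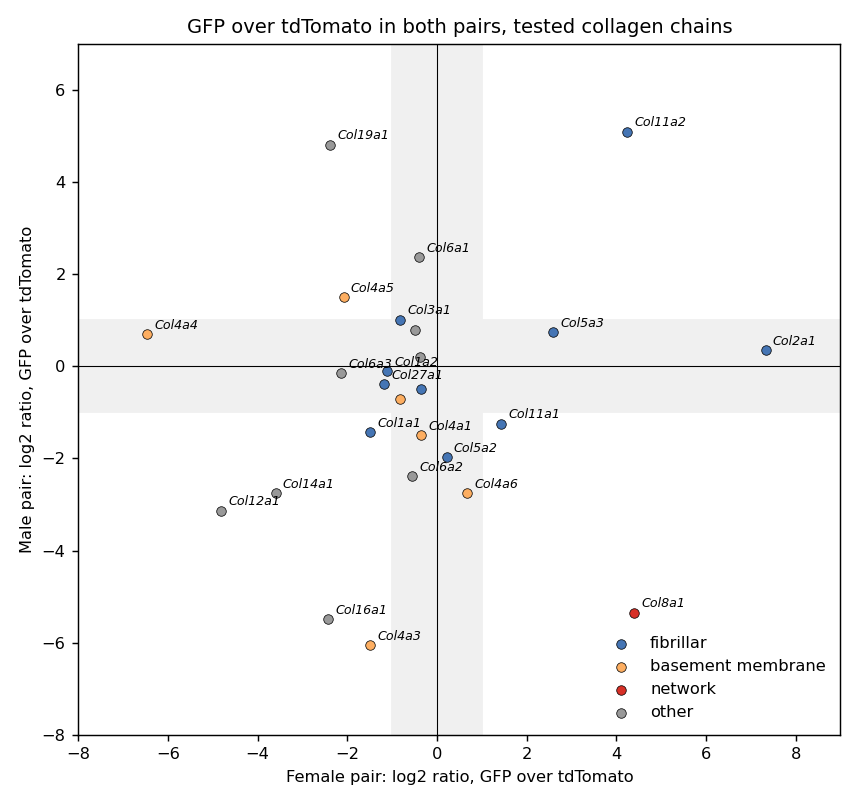
log2 ratio of GFP over tdTomato in the female pair (horizontal) and the male pair (vertical) for the 26 tested chains, coloured by class, with a prior count of 2. Grey bands mark less than 2-fold. The 5 chains at lower left are lower in GFP in both pairs, Col11a2 at upper right is higher in both, and Col8a1, Col11a1, Col4a5 and Col19a1 lie in the opposite corners. The vertical place of Col11a1 is set by the prior count, as its male libraries had 0 and 3 counts.

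Type I collagen, the main fibril of the wall, is a trimer of Col1a1 and Col1a2 products. Col1a1 was lower in GFP in both pairs, at 70.6 CPM (female) and 57.5 CPM (male) in GFP versus 198 and 156 CPM in tdTomato. The fold was 2.80 in the female pair (95% interval 2.60 to 3.02) and 2.71 in the male pair (2.46 to 2.98), the log2 ratio averaging -1.46 ± 0.03 (SD, n = 2 pairs). The 2 pairs gave nearly the same fold, and edgeR's unadjusted p was 0.256 (adjusted p = 1). Col1a2 measured 646 and 1311 CPM in GFP versus 1392 and 1413 CPM. It was 2.16-fold lower in GFP for the female pair (2.10 to 2.21) and 1.08-fold lower in the male pair (1.05 to 1.10). Female GFP therefore stood apart from the other 3 libraries for Col1a2, but not for Col1a1.

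Col3a1, the chain of type III collagen of distensible tissues, measured 607 and 1693 CPM in GFP versus 1077 and 838 CPM. Male GFP was the highest library and female GFP the lowest, so that the groups overlapped. Its pairs went opposite ways, with log2 ratios of -0.83 and 1.014. Of the type V chains, Col5a1 measured 109.8 and 93.0 CPM in GFP versus 142 and 132 CPM. Both GFP libraries were below both tdTomato libraries, by 1.29-fold (1.21 to 1.38) in the female and 1.42-fold (1.31 to 1.54) in the male pair, and edgeR's unadjusted p was 0.715. Col5a2 measured 305 and 39.9 CPM against 263 and 157 CPM. Only male GFP was low for Col5a2, 3.94-fold below its tdTomato partner (3.53 to 4.41). Col5a3 was detected mainly in the female libraries, at 16.5 CPM (208 counts) in female GFP, 1 count in male GFP, 39 counts in female tdTomato and 0 in male tdTomato.

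Col27a1, a fibrillar chain of cartilage and other tissues, was the only chain at least 2-fold lower in female than in male cells in both colours. It measured 4.12 and 22.6 CPM in GFP and 9.56 and 29.5 CPM in tdTomato. Col24a1 had 0 to 6 counts.

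The chains of cartilage collagens were highest in female GFP. This grouping of types II, IX and XI was made after their values were seen. Col2a1, which forms type II collagen, had 1133 (89.7 CPM, female) and 9 counts (male) in GFP, against 6 and 10 counts in tdTomato. It was 224-fold higher in GFP for the female pair (102 to 611) and 1.33-fold in the male pair (0.479 to 3.65). Col9a1, of the FACIT type IX that decorates type II fibrils, had 1680 (133 CPM, female) and 5 counts (male) in GFP, against 1 count in each tdTomato library. Its partners Col9a3 and Col9a2 had 198 and 48 counts in female GFP, and 0 to 4 counts elsewhere.

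Col11a2 was the chain that stood on the GFP side in both suspensions, at 29.4 and 15.01 CPM in GFP versus 1.40 and 0.288 CPM in tdTomato. It was 20.9-fold higher in GFP for the female pair (13.5 to 34.2) and 52.2-fold in the male pair (19.9 to 194), with the log2 ratio averaging 4.67 ± 0.60 (SD, n = 2 pairs). edgeR's unadjusted p was 0.116 (adjusted p = 0.809), and the adjusted p of DESeq2 was 0.0656. Col11a1, its partner in type XI, followed the sex label instead, with 257 and 0 counts in GFP against 111 and 3 counts in tdTomato. It was 2.74-fold higher in GFP for the female pair (2.19 to 3.46), and both male libraries were at or under the floor of 3 counts, so no fold is given. Per kilobase, Col11a1 stood at 0.546 of Col11a2 in female GFP (0.464 to 0.642) and at 4.17 times Col11a2 in female tdTomato (2.60 to 7.001).

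Among all genes at 10 CPM or more in some library, 3.01% of 11839 were at least 10-fold higher in female GFP than in each of the other libraries. Of the 28 such collagen chains 4 were (14.3%), namely Col2a1, Col8a1, Col9a1 and Col9a3. The corresponding number was 0 for male GFP and female tdTomato and 1, Col6a6, for male tdTomato, against 3.38%, 2.73% and 2.81% of all genes. Col2a1 passed the filter of the test, and Col9a1, Col9a2 and Col9a3 did not, because they reached the minimum count in 1 library only.

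Of 6 chondrocyte markers 5 were in the table, and they summed to 230.5 and 89.7 CPM in GFP versus 93.1 and 113 CPM in tdTomato, with Hapln1 at 0 in male GFP and female tdTomato. Cnmd and Hapln1 had the pattern of Col9a1, at 18.8 and 17.3 CPM in female GFP and at most 0.426 CPM elsewhere. Sox9, the transcription factor of cartilage, measured 149.9 and 0.213 CPM in GFP versus 76.7 and 74.5 CPM. Acan, the large proteoglycan of cartilage, was highest in male GFP, at 17.6 and 66.7 CPM against 11.2 and 23.02 CPM. The part of such cells in the collagen values was not tested.

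**Figure D4:**
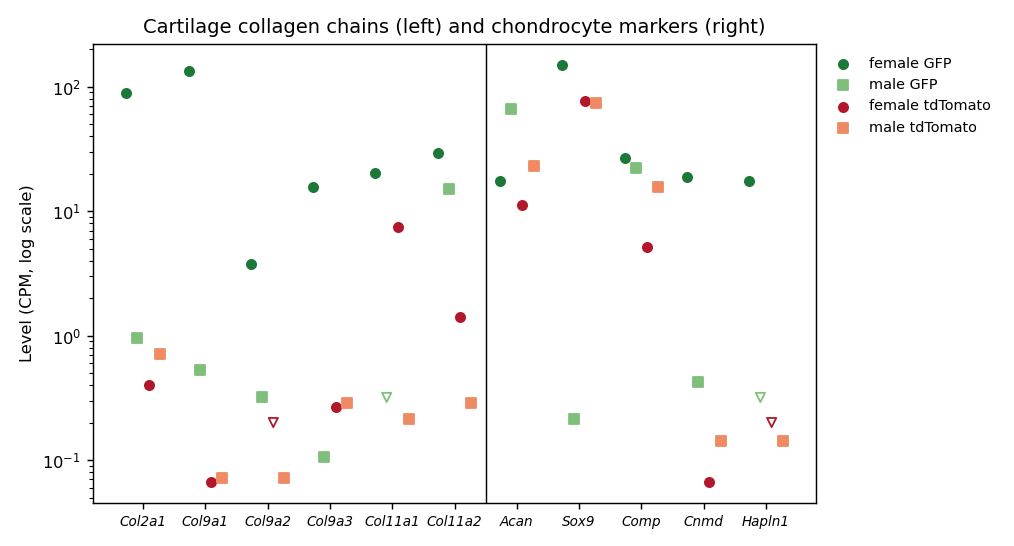
Levels of the type II, IX and XI chains (left of the line) and of 5 chondrocyte markers (right) in the 4 libraries, on a logarithmic CPM axis. Col2a1, Col9a1, Col9a3, Cnmd and Hapln1 are high in female GFP and near the detection limit elsewhere, whereas Col11a2 is high in both GFP libraries. Col9a2 is also highest in female GFP, though only at 3.80 CPM. Open triangles are 0 counts, drawn at the level of 3 counts.

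Type IV chains are encoded by 3 pairs of genes that lie head to head. The stretches around the annotated starts of 2 of these pairs are shown because the levels of the pairs differed between libraries in unlike ways. A link between the stretches and the levels was not tested. Each run covers 250 bases before and 50 bases after the start, from RefSeq on GRCm38.p6, which is an earlier build than the GRCm39 named for the counts. The Col4a1 window is chr8:11312777-11313076 on the minus strand and the Col4a2 window chr8:11312555-11312854 on the plus strand. Capitals mark the 78 bases that the 2 windows share, and the starts are 21 bases apart.
Col4a1: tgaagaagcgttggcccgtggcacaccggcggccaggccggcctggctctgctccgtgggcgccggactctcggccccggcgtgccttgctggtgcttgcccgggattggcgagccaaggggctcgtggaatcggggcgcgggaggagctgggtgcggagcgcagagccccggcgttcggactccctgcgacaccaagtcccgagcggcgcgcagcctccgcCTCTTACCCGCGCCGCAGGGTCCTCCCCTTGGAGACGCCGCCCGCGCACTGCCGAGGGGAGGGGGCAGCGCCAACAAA
Col4a2: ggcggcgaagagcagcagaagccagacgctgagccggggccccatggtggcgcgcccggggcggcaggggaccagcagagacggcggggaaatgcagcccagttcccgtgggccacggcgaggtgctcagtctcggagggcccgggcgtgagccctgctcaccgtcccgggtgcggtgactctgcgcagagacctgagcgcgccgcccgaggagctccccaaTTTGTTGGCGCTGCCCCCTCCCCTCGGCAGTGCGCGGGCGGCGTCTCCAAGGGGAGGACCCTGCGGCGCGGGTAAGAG
The Col4a5 window is chrX:141475169-141475468 on the plus strand and the Col4a6 window chrX:141474027-141474326 on the minus strand. Their starts are 1343 bases apart and the windows share no base. Capitals mark CCAAT and GGGCGG, searched on both strands.
Col4a5: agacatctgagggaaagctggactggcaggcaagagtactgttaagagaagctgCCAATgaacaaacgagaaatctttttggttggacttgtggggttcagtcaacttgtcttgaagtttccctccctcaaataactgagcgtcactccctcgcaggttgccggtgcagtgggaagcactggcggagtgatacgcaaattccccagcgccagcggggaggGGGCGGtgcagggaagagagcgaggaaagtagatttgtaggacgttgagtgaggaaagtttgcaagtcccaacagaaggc
Col4a6: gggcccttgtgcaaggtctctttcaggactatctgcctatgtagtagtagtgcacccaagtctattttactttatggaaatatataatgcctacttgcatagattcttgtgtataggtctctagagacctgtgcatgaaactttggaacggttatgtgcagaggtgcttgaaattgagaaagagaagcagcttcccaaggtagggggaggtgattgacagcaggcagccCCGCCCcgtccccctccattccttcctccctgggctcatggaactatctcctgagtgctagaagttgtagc
GGGCGG, on either strand, was present in the windows of all 4 genes, in 22 of the 34 windows that 31 collagen chains had, and in 35.7% of all 32851 windows. CCAAT was present in the windows of Col4a1, Col4a2 and Col4a5, in 11 of the 34 and in 37.4% of all windows.

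Col4a1 and Col4a2, which form the common type IV trimer of every basement membrane, had a ratio between 1.47 and 3.04. It differed 2.06-fold between the GFP libraries and 1.15-fold between the tdTomato libraries. Col4a1 measured 311 and 155 CPM in GFP versus 399 and 437 CPM in tdTomato. Col4a2 measured 99.7 and 103 CPM against 176 and 168 CPM. Per kilobase, Col4a1 stood at 3.04 times Col4a2 in female GFP (95% interval 2.85 to 3.24) and 1.47 times in male GFP (1.36 to 1.60), against 2.21 (2.11 to 2.32) and 2.54 times (2.42 to 2.66). Col4a2 was lower in GFP by a like amount in both pairs, the log2 ratio averaging -0.76 ± 0.08 (SD, n = 2 pairs, edgeR unadjusted p = 0.503).

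Col4a5 and Col4a6, which join in the basement membrane of smooth muscle, did not keep their ratio in the GFP libraries. Col4a5 measured 106 and 772 CPM in GFP versus 450 and 273 CPM. It was 4.24-fold lower in GFP for the female pair (4.002 to 4.50) and 2.83-fold higher for the male pair (2.72 to 2.94). Col4a6 measured 343 and 20.4 CPM in GFP versus 217 and 139 CPM. Per kilobase, Col4a5 stood at 0.314 of Col4a6 in female GFP (0.295 to 0.334) and 38.4 times in male GFP (33.3 to 44.5), against 2.11 (2.02 to 2.20) and 2.00 times (1.90 to 2.12) in the tdTomato libraries. The ratio thus differed 122-fold between the GFP libraries and 1.05-fold between the tdTomato libraries. Female GFP was below and male GFP above both tdTomato ratios.

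Col4a3 and Col4a4, the minor chains known from the filter of the kidney, were also split. Col4a3 measured 3.72 and 0 CPM in GFP versus 10.7 and 10.3 CPM. Col4a4 measured 0.317 CPM (4 counts) and 46.1 CPM in GFP versus 41.9 and 28.3 CPM. Female GFP thus had Col4a3 with hardly any Col4a4, and male GFP had Col4a4 with no count of Col4a3. Col4a3 was 2.87-fold lower in GFP for the female pair (2.07 to 4.07), and for the male pair by at least 32.2-fold. The endothelial markers, which mark another maker of type IV collagen, were lower in GFP as given above, and their part in these values was not tested.

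**Figure D5:**
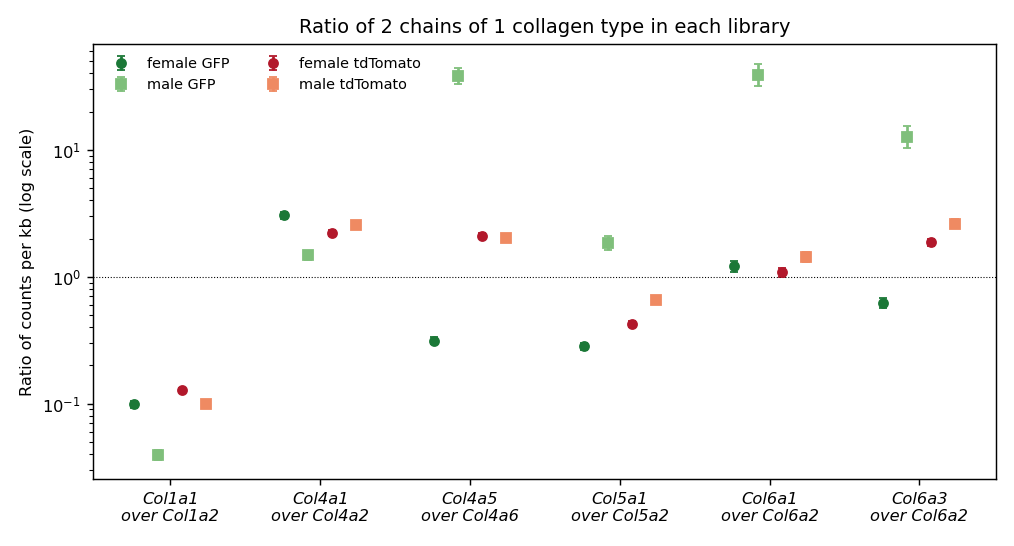
Ratio of 2 chains of the same collagen type, as counts per kilobase of transcript, in each library, on a logarithmic axis, with 95% exact binomial intervals. For the 6 ratios plotted, the tdTomato libraries differ by at most 1.55-fold, whereas the GFP ratios of Col4a5 over Col4a6 differ 122-fold and those of Col6a1 over Col6a2 differ 32.2-fold.

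Type VI collagen is built from 1 chain each of Col6a1, Col6a2 and Col6a3. Col6a1 measured 69.5 and 387 CPM in GFP versus 91.8 and 74.96 CPM, so that male GFP was 5.16-fold above its partner (4.82 to 5.54). Col6a2 measured 65.2 and 11.3 CPM against 96.3 and 59.8 CPM, and male GFP was 5.30-fold below its partner (4.33 to 6.55). Col6a3 measured 88.2 and 309 CPM against 389 and 341 CPM, and here female GFP was the low library, 4.41-fold below its partner (4.14 to 4.71). The 3 chains of 1 trimer thus went apart in male GFP. Per kilobase, Col6a1 stood at 1.21 times Col6a2 in female GFP (1.10 to 1.33) and 38.9 times in male GFP (32.1 to 47.7), against 1.08 (1.00 to 1.17) and 1.42 times (1.30 to 1.56). By coding length the female tdTomato ratio was 0.961. The sum of the pericyte markers was highest in male GFP, as were Col4a5 and Col6a1. Rgs5 alone supplied 1690 of the 2146 CPM of that sum. Kcnj8 and Cspg4 also peaked in male GFP, whereas Abcc9 was below its level in each tdTomato library and Notch3 had no count. The part of pericytes in the collagen values was not tested.

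The same held for type V, though less so. Per kilobase, Col5a1 stood at 0.284 of Col5a2 in female GFP and 1.84 times in male GFP, against 0.425 and 0.660 in tdTomato. In type I, Col1a1 stood at 0.0985 and 0.0395 of Col1a2 in GFP against 0.128 and 0.0993 in tdTomato. Counts per kilobase of Col1a1 were thus below those of Col1a2 in all libraries. Whether the 2 transcripts were recovered alike was not tested.

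The difference between the GFP libraries was about as common among all genes as among collagen chains. Of the 14 chains at 10 CPM or more in all libraries, 8 were at least 2-fold apart between female and male GFP (57.1%), against 53.3% of the 3459 genes of that level. Of the 26 tested chains, 19 were that far apart between the GFP libraries (73.1%, against 68.3% of all genes) and 6 between the tdTomato libraries (23.1%, against 42.2%). None of the 14 was 2-fold apart between the tdTomato libraries, against 17.5% of those genes. Among all 26 tested chains the median absolute log2 difference was 2.44 between the GFP libraries and 0.65 between the tdTomato libraries, beside 1.90 and 0.81 over all tested genes. Where both tdTomato libraries reached 10 CPM, at most 3 counts were found for 9.39% of genes in female GFP and for 23.6% in male GFP. Of 18 such chains the numbers were 0 and 2 (Col4a3 and Col16a1). Male GFP had 0 counts of 5 of the 28 chains that reached 10 CPM in some library (17.9%, against 24.4% of such genes), and each other library of 1 (3.57%, against 13.6% in female GFP, 4.37% in female tdTomato and 4.64% in male tdTomato).

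The network chain Col8a1, of the short-chain type VIII found in vessels, was among the highest chains of female GFP and had no count in male GFP. It measured 257 CPM (3246 counts) and 0 CPM in GFP versus 12.04 and 6.26 CPM in tdTomato. It was 21.4-fold higher in GFP for the female pair (18.4 to 24.95), whereas for the male pair it was lower by at least 19.6-fold. Col8a2, its partner, had no count in either GFP library, against 31 and 8 counts in tdTomato. Col10a1, a chain of hypertrophic cartilage, had 2 counts in male GFP and none elsewhere.

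Of the FACIT chains, Col12a1, Col14a1 and Col16a1 were lower in GFP in both pairs. Col14a1, a chain of fibroblasts on the surface of type I fibrils, measured 7.998 and 18.8 CPM in GFP versus 98.8 and 128 CPM in tdTomato. It was 12.4-fold lower in the female pair (10.1 to 15.3) and 6.82-fold lower in the male pair (5.84 to 8.003), the log2 ratio averaging -3.18 ± 0.60 (SD, n = 2 pairs). edgeR's unadjusted p was 0.111 (adjusted p = 0.790). Both GFP libraries were far below both tdTomato libraries.

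Col16a1 measured 3.56 and 0.106 CPM (1 count) in GFP against 19.8 and 11.7 CPM. It was 5.55-fold lower in GFP for the female pair (4.05 to 7.78) and 110.1-fold lower in the male pair (19.5 to 4377), the wide interval coming from the single count. Col12a1 had 3 and 0 counts in GFP against 163 and 17 counts in tdTomato, 45.9-fold lower for the female pair (15.4 to 225) and lower by at least 3.83-fold for the male pair. The 8 fibroblast markers went only partly with these chains. Pdgfra measured 0 and 0.426 CPM in GFP versus 68.6 and 61.9 CPM in tdTomato. Dcn measured 2134 and 153 CPM against 1920.0 and 2236 CPM. The part of fibroblasts in the FACIT values was not tested.

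Col19a1 had 6 and 40 counts in GFP against 47 and 0 counts in tdTomato, so that its pairs went opposite ways at low counts. It was 6.61-fold lower in GFP for the female pair (2.82 to 18.9), and for the male pair higher by at least 19.7-fold. Col20a1 and Col22a1 had at most 3 counts in any library. The multiplexins differed little. Col18a1, the source of the fragment endostatin, measured 351 and 515 CPM in GFP versus 460 and 448 CPM. Col15a1 measured 125 and 160.2 CPM against 175 and 92.7 CPM. In both cases the groups overlapped and no library was 2-fold from its partner.

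Of all 40 chains, 12 stayed under 10 CPM in every library, several of them described above, and the highest of the 12 was Col23a1 at 4.68 CPM. Col23a1, a transmembrane collagen, had 70 counts in female tdTomato and 0 in the other libraries. Col6a6 had 150 counts (10.8 CPM) in male tdTomato and 0 elsewhere. Col6a4 and Col6a5, near relatives of Col6a6, had at most 1 count. Col25a1 had 3 to 9 counts and Col26a1 had 5 and 23 counts in GFP against 10 and 7 counts.

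Collagen chains are hydroxylated, folded, exported and crosslinked by a common set of enzymes and helpers, and 47 such genes, receptors included, were listed. The table held 45 and the filter left 37. The edgeR test called none of the 37, 0 having an unadjusted p under 0.05, and the smallest adjusted p was 0.583. By size, 9 were lower in GFP by 2-fold or more in both pairs (24.3%), and 1 was as much higher (2.70%), against 22.9% and 5.17% of all genes. Another 4, Crtap, Plod3, Mia3 and Ddr1, were 2-fold apart in opposite directions (10.8%, against 19.2% of all genes). The shares of lower and higher genes are near the background.

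The 9 lower genes spanned several steps. P4ha1, a subunit of the prolyl hydroxylase that stabilises the helix, measured 15.8 and 71.2 CPM in GFP versus 136 and 292 CPM. Pcolce, which speeds removal of the C-terminal propeptide of fibrillar chains, measured 1.43 and 7.45 CPM against 49.2 and 81.5 CPM. Pxdn, the peroxidase that forms the sulfilimine crosslink of type IV collagen, measured 0.238 and 0.745 CPM against 42.7 and 49.7 CPM. In all 9 lower genes both GFP libraries were below both tdTomato libraries. P3h2, a prolyl 3-hydroxylase, measured 0 and 0.213 CPM against 46.1 and 6.55 CPM.

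Of the export genes, Sec24d, a subunit of the COPII vesicle coat that carries procollagen, measured 19.6 and 29.9 CPM in GFP versus 157 and 199 CPM. Sec23a, of the same coat, measured 27.4 and 0.106 CPM against 64.7 and 68.3 CPM. Mia2 measured 5.62 and 28.5 CPM against 56.9 and 62.7 CPM, the folding helper Fkbp10 11.9 and 0.106 CPM against 43.4 and 26.6 CPM, and the crosslinking enzyme Loxl3 7.05 and 0.639 CPM against 18.8 and 36.0 CPM. Sec13, also of the COPII coat, was the gene higher in both pairs, at 63.99 and 254 CPM against 24.01 and 33.5 CPM. The coat subunits thus did not go one way.

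The most abundant genes of the list were within 3-fold between partners. Itgb1 and Itga1, which pair as a collagen receptor of smooth muscle, were not 2-fold apart in either pair. Itgb1 measured 649.9 and 597 CPM in GFP versus 466 and 463 CPM in tdTomato, and Itga1 measured 392 and 332 CPM versus 250.9 and 237 CPM. Serpinh1, the chaperone of procollagen, measured 262 and 123 CPM against 190.1 and 196 CPM. Lox, which starts crosslinks in collagen and elastin, measured 201 and 166 CPM against 338 and 149.8 CPM. Ppib measured 231 and 249.6 CPM against 188 and 154 CPM, and Plod2, a lysyl hydroxylase, 197 and 366 CPM against 215 and 137 CPM.

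The female and the male suspension were compared last. As 1 suspension stands for each sex, and the male one was a pool, sex and suspension cannot be told apart. edgeR's quasi-likelihood test with colour as a block called 0 of 15055 genes (0%), 262 having an unadjusted p under 0.05. It called none of the 26 chains, and 1, Col5a3, was under 0.05 before adjustment (edgeR unadjusted p = 0.03995, adjusted p = 1). DESeq2 called 0.93% of all genes and none of the chains. Col5a3, Col11a1 and Col12a1 were at least 2-fold higher in female cells in both colours (11.5% of the 26 chains against 10.3% of all genes), and Col27a1 was lower in both (3.85% against 6.28%). Within GFP, 10 chains were 2-fold higher and 9 lower in the female library (38.5% and 34.6%, against 40.4% and 27.9% of all genes). Within tdTomato the numbers were 5 and 1 (19.2% and 3.85%, against 21.6% and 20.6%). Col12a1 had at most 3 counts in GFP, so that its fold there rests on the prior count of 2. In Col5a3 and Col11a1 the male libraries had 0 to 3 counts, against 39 to 257 counts in the female ones.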

How the data were processed

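Polyadenylated RNA of 4 libraries of sorted aortic cells was sequenced. Per the labels' protocols, cDNA was primed with oligo(dT), completed by template switching (SMART-Seq v4), PCR-amplified and cut with Tn5. The kit leaves strand unmarked, so reads of antisense partners are mixed. The submitters' processing notes name fastp, HISAT2, StringTie and GRCm39, while the sources used here do not give the counting program. The authors deposited expected counts, that is, estimated counts per gene, of which 59.4% to 69.1% were whole (tolerance 1e-06). They were rounded.

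Symbols came from GENCODE's annotation of GRCm38, in which 76.4% of identifiers, with 92.7% to 94.9% of counts, were found. It also gave lengths, from the longest protein-coding transcript of a gene. RefSeq lengths had been planned and were not used here. Members, lists and tests were chosen with earlier results of these data known.

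Genes kept by filterByExpr (minimum count 10) were tested with edgeR 4.0.16 in R 4.3.3 after TMM scaling, with Benjamini-Hochberg adjustment at 0.05. TMM factors were 0.923 and 0.931 for female and male GFP and 1.07 and 1.08 for female and male tdTomato. The scripts were tested on simulated data. Alternatives were DESeq2 1.42.0, limma-voom (limma 3.58.1), other scaling, filters and prior counts, a fit with no block, and fits without 1 library. The suspension was the block because, per the labels, both colours of a sex were sorted from it. The edgeR p-values set a gene's fold against a dispersion estimated with all tested genes, not against the spread of its own 2 pairs alone. They cover no variation beyond these 2 pairs. For log2 ratios a prior of 2 counts was added. Folds of single genes have no prior and carry an exact 95% binomial interval, and against 0 counts they are bounds set at 3 counts per library. Named were all members, the processing genes 2-fold apart in the same direction in both pairs, the 6 most abundant of these, and up to 2 markers per list. Pdgfra, Dpt, Ly6a, Kcnj8, Abcc9, Notch3, Cnmd, Hapln1 and the processing genes in opposite directions were named after their values were seen. The counts at 10-fold in 1 library, at 0 or at most 3 counts, and at 10 CPM in all libraries were also added after seeing the data.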

Additional observations from a re-analysis of the deposited data

Results flagged for a closer look

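The log2 ratio of GFP over tdTomato had, with a prior count of 2, opposite signs past 2-fold in the female and male pairs for 4 chains, and the difference was not tested because each combination had 1 library. Female pair minus male pair, it was 9.75 for Col8a1, 2.68 for Col11a1, -3.58 for Col4a5 and -7.20 for Col19a1. For Col11a1 the male value rests on 0 and 3 counts, both at or under the floor, and with 0 set to 3 counts its male log2 ratio is 0.57, so that opposite signs rest on measured counts in 3 of the 4 chains. For Col19a1 the male value rests on 40 and 0 counts. Of all tested genes 19.2% were opposite in this way.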

How the results depend on the processing

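The numbers of chains called were 0 under each alternative run, for both comparisons. Over all genes, DESeq2 called 1157 for colour and 140 for suspension, and edgeR without the filter called 2 for suspension. For the colour comparison, the fit that left out the suspension block called 0 genes and 0 chains. Fits without 1 library, run for colour only, had no block and assume that the lone library of a colour varies like the others. Their median log2 ratios are given above. Chains lower in GFP by at least 2-fold in both pairs numbered 2 of 20 among genes with a mean of 10 CPM, where opposite chains also numbered 2 and chains 2-fold apart between tdTomato libraries 2. Those higher in both numbered 2 without the filter and 2 at a prior count of 0.5, and without the filter 10 of 40 chains were 2-fold apart between tdTomato libraries. The female median was -0.91 with library totals and -0.42 without the filter. The male median was -0.20 with DESeq2's size factors, -0.66 with library totals, -0.23 without the filter and -0.26 among genes with a mean of 10 CPM. Scaling moved the median of all genes too, to -0.48 and -1.20 with library totals and to -0.78 in the male pair with size factors. Relative to it the chains stood at -0.42 and 0.56, and at -0.43 and 0.54 with totals, at -0.42 and -0.14 without the filter, which turns the male sign, and at -0.60 and 0.33 among genes with a mean of 10 CPM. Without the 10 most abundant genes the collagen share was 0.416% and 0.643% in GFP against 0.720% and 0.633% in tdTomato, so that the colours then overlapped. By coding length the geometric means of 6 chain ratios moved by less than their spread between libraries, Col6a3 over Col6a2 most, to 1.70 from 2.49, and Col6a1 over Col6a2 in female tdTomato was 0.961 in place of 1.08. The signs of Col1a1, Col4a3, Col11a2, Col12a1, Col14a1 and Col16a1 held under the alternatives run. These chains had been picked for folds of the same direction in both pairs, which makes a change of sign unlikely. Precision is limited by 1 library per sex and colour, and the cause of each change was not tested.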
